A study of Mus musculus with 6 samples.

Results

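A set of 10 genes for Z-disc and LIM domain muscle proteins were followed in cells sorted from the ovaries of adult mice: Pdlim1, Pdlim2, Pdlim3, Pdlim5, Pdlim7, Ldb3, Csrp1, Csrp2, Nexn and Myom1. They are 10 of the 18193 genes with a symbol of their own on the array and were read on 23 of its 45037 probe sets other than controls. The members were chosen by gene name with earlier results of this same contrast in view, so their differences between the groups are given as a description, with no test.

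Cells of the Gli1 lineage were labelled in female Gli1-CreERT2; Rosa-LSL-tdTomato mice of strain 129S6/SvEvTac, in which tamoxifen lets a Cre recombinase made by Gli1-expressing cells switch on a permanent red reporter. The mesonephros-derived group (3 samples) received tamoxifen before birth, on E12.5 and again on E14.5 as well as E16.5, while the ovary-derived group (3 samples) received it through the milk of the treated dam on postnatal days 1 to 3. Both groups shared genotype, strain and an age of 2 months at sorting, so every sample had been exposed to tamoxifen, and the reporter marks whichever cells expressed Gli1 in those days, of any type. Origin and the time of labelling changed together and cannot be told apart. RNA was amplified and hybridised to 1-colour arrays, on which each probe set gives 1 linear signal in arbitrary units; signals of different probe sets cannot be set against each other.

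The Z-disc is the plate that anchors actin filaments at the ends of a striated muscle sarcomere, and the M-band holds the myosin filaments at its middle. Smooth muscle has no Z-discs; its actin is anchored at dense bodies and membrane plaques, which share alpha-actinin and several of the same adaptor proteins. LIM domains are zinc-binding protein modules that dock on actin, alpha-actinin and signalling proteins. In the ovary, the outer layer of theca cells around a follicle holds contractile, smooth muscle-like cells. Many genes of muscle are switched on by serum response factor (SRF), which binds the CArG box, and by TEAD factors, which bind the MCAT motif.

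Regulatory sequence was available for 7 of the 10 genes, as RefSeq windows of 250 bases before to 50 after each start site (build GRCm38.p6). A CArG box (CC, then A or T at 6 positions, then GG; the motif reads the same on both strands) was found in windows of Ldb3 and Myom1, that is in 2 of 7 members against 1.81% of all 27025 genes with a window. The MCAT motif, searched as CATTCC on both strands, was found in the window of Pdlim3 alone, against 16.6% of all genes. One sequence is shown for each of these 3 genes because a motif was found in it (the window of a second Ldb3 start site holds the same box), and each gene had separated groups; the 250 bases before the start site are given, with CArG boxes (Ldb3, Myom1) or MCAT motifs (Pdlim3) in capitals, and they are those of the reference strain C57BL/6J. The Ldb3 sequence is at chr14:34588682-34588931 on the minus strand, the Myom1 sequence at chr17:71019307-71019556 on the plus strand and the Pdlim3 sequence at chr8:45885237-45885486 on the plus strand. A match is a string of letters in the window and says nothing of binding in these cells.
Ldb3: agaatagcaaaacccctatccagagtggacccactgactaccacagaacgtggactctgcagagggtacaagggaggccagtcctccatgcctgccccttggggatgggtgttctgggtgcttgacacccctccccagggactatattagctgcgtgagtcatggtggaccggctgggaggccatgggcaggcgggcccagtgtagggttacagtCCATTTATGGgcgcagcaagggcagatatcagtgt
Myom1: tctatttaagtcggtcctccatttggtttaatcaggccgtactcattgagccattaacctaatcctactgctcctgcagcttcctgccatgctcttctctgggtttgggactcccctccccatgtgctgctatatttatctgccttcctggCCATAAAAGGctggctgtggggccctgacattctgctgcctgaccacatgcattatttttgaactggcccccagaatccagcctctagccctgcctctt
Pdlim3: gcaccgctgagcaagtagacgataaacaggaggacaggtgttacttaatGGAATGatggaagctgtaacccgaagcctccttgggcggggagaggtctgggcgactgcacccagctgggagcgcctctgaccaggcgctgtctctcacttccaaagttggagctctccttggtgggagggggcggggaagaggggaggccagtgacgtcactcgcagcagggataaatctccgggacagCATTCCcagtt
Counted from the start site, the Ldb3 box lay at −35 to −26 in the sequence shown and at −109 to −100 from the other Ldb3 start site, and the Myom1 box lay at −99 to −90. In Pdlim3 an MCAT motif lay at −11 to −6, and another, on the opposite strand, at −201 to −196.

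A few facts of the whole series bear on every value that follows. Mesonephros-derived arrays correlated less well with each other (0.845 to 0.896 over all probe sets) than ovary-derived arrays did (0.963 to 0.973), and mesonephros-derived replicate 3 lay closer to the ovary-derived arrays (0.946 to 0.950) than to its own group. Replicates 1 and 2 of that group also correlated less with each other (0.845) than with any ovary-derived array (0.871 to 0.875 and 0.887 to 0.893). Poly-A spike transcripts, scaled to their mean over the ovary-derived arrays, read 12.0, 12.2 and 2.31 in mesonephros-derived replicates 1, 2 and 3 and 0.668 to 1.51 in ovary-derived ones. For Gapdh the 3′ over 5′ ratio was 5.29, 3.48 and 2.63 against 1.94 to 2.86. The same ratio for Actb was not raised, at 0.887, 0.930 and 0.894 against 0.920 to 1.01. Theca markers were present: Cyp17a1, Cyp11a1, Star and Hsd3b1 lay above the floor on all 6 arrays. Their summed signal was 22394 to 41572 in mesonephros-derived and 13415 to 20749 in ovary-derived samples. On the brightest probe sets only Cyp17a1 had separated groups, with mesonephros-derived arrays higher (log2 change 2.67 ± 0.45 SE, limma adjusted p = 0.123). The groups overlapped for Cyp11a1, Star and Hsd3b1, though further Star probe sets separated them in the same direction. Summed endothelial markers (5 of 5 measured) stood at 1334 to 4480 against 3777 to 6168, and summed macrophage markers (4 of 4 measured) at 325 to 2071 against 2060 to 2577. Each of these markers lay past the floor on average, but some lay below it on single arrays. In mesonephros-derived replicate 1 Kdr read 9.91, Pecam1 44.4, Tek 90.9, Csf1r 2.81, Ptprc 16.1 and Adgre1 46.4. In mesonephros-derived replicate 3 Kdr read 90.3, Pecam1 36.9 and Ptprc 63.6, and in replicate 2 Adgre1 read 97.5. In ovary-derived replicate 3 Ptprc read 86.1. The part of these array and marker differences in the results below was not tested. In sorted cells measured in bulk, a difference in the share of a cell type and one in RNA per cell cannot be told apart.

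Of the 10 genes, 7 (Pdlim2, Pdlim3, Ldb3, Csrp1, Csrp2, Nexn and Myom1) had a higher signal on every mesonephros-derived array than on any ovary-derived array. Each gene is read here from its brightest probe set, the one whose mean log2 value over the 6 arrays is highest. All 10 lay past the floor, a signal of 99.4, which is set on the mean of the log2 values over the 6 arrays; probe sets below it were not tested. Such a separation with the mesonephros-derived arrays higher was seen for 9.56% of the 11703 genes tested, and one with them lower for 12.6%; 0 of the 10 members were separated in that direction. Since the members were picked with this contrast known, nothing is read from their count. Their median log2 change, mesonephros-derived minus ovary-derived on log2(signal + 16), was 0.93, beside −0.08 over all genes tested. Standard errors (SE) are those of the limma fit over all probe sets, and a fold is computed on the same scale, which understates the change of dim genes.

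**Figure D1:**
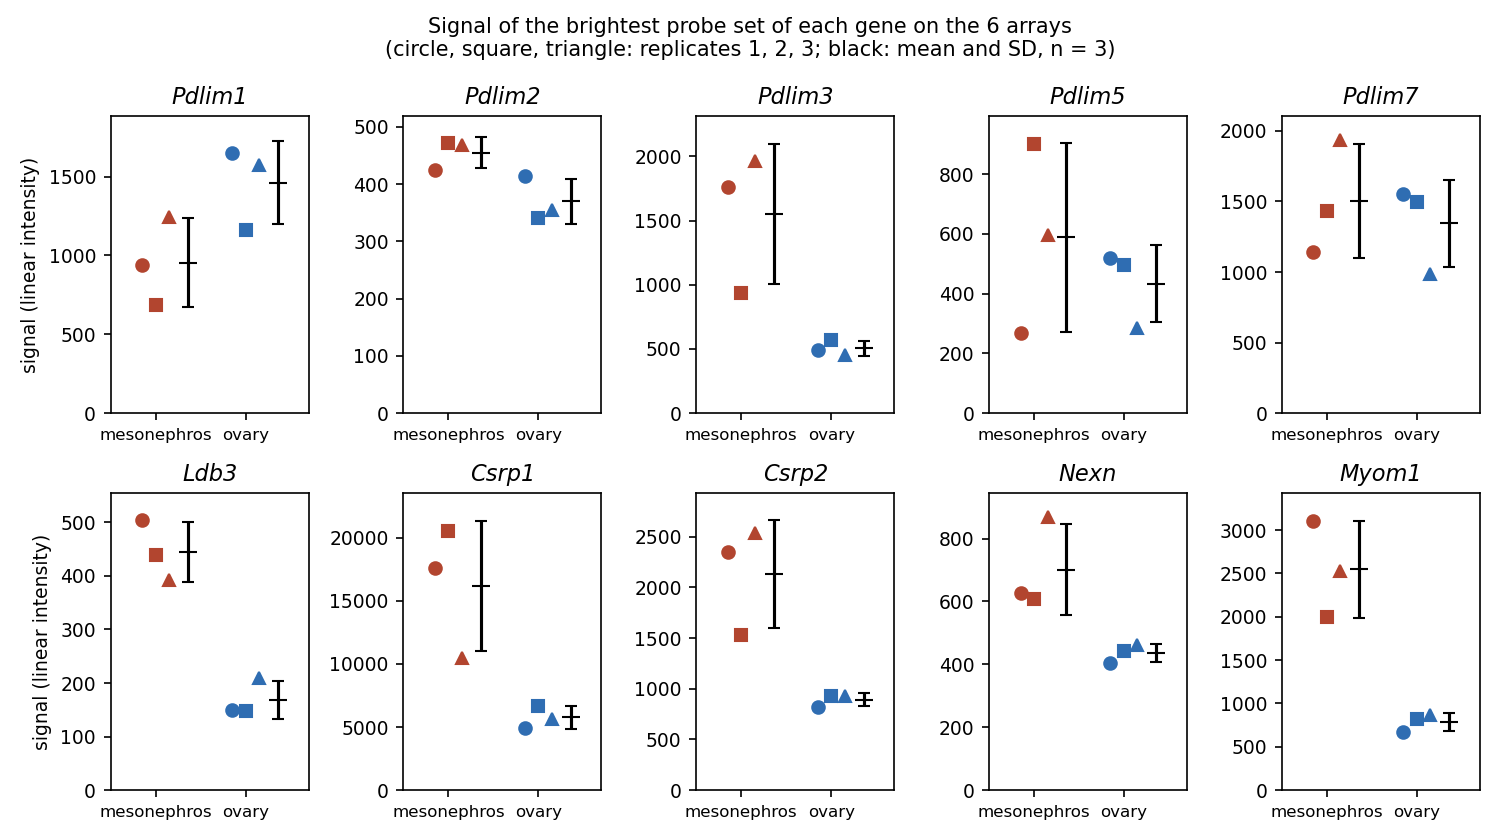
Signal (linear intensity, vertical axis from 0) of the brightest probe set of each of the 10 genes in the 3 mesonephros-derived (red) and 3 ovary-derived (blue) samples, with the mean and SD of each group in black. In 7 panels every red point lies above every blue one; in Pdlim1, Pdlim5 and Pdlim7 the groups overlap.

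The ALP group of PDZ and LIM proteins comprises Pdlim1, Pdlim2, Pdlim3 and Pdlim4, which bind alpha-actinin. Pdlim3, the actinin-associated LIM protein of skeletal, heart and smooth muscle, had signals of 1760, 935 and 1966 in mesonephros-derived replicates 1, 2 and 3 and of 493, 570 and 450 in ovary-derived replicates 1, 2 and 3. The lowest mesonephros-derived value, in replicate 2, still lay above all ovary-derived ones. The means were 1554 ± 545 and 504 ± 61.2 (SD, n = 3 each), a 2.89-fold difference (log2 change 1.53 ± 0.32 SE). Without mesonephros-derived replicate 2 the log2 change was 1.86, and without replicate 3 it was 1.33.

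Pdlim1, also called CLP36 and found on actin stress fibres, was the one member whose mean was lower in mesonephros-derived cells. Its signals were 937, 683 and 1244 against 1649, 1159 and 1571, with means of 955 ± 281 and 1460 ± 263 (SD, n = 3). The groups overlapped, since mesonephros-derived replicate 3 lay above ovary-derived replicate 2, and the log2 change was −0.63 ± 0.28 (SE). The overlap was gone once either of those arrays was left out, with log2 changes of −0.84 and −0.79. Without mesonephros-derived replicate 2 the log2 change was −0.41, and with array weights it was −0.31. Its other 2 probe sets lay below the floor on all 6 arrays.

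Pdlim2, or mystique, which also acts as a ubiquitin ligase in the nucleus, had signals of 425, 472 and 468 against 415, 341 and 354. The groups were separated by a narrow margin, and the log2 change of 0.29 ± 0.29 (SE) was no larger than its error. After median centring the groups overlapped. Pdlim4, the remaining gene of the group and no member here, had means of 617 ± 76.1 and 533 ± 130 (SD, n = 3), and its log2 change was 0.23 ± 0.30 (SE, limma adjusted p = 0.760). Within the ALP group, then, values ran from −0.63 for Pdlim1 to 1.53 for Pdlim3.

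The Enigma group, Pdlim5, Pdlim7 and Ldb3, carries additional LIM domains that dock on protein kinases. Ldb3, known as ZASP or Cypher and a component of the striated Z-disc, had signals of 504, 438 and 392 in mesonephros-derived and 150, 147 and 210 in ovary-derived samples. All 3 mesonephros-derived arrays were high and close together. The means were 445 ± 56.6 and 169 ± 35.7 (SD, n = 3), a 2.51-fold difference (log2 change 1.33 ± 0.35 SE). Leaving out any one array gave log2 changes of 1.23 to 1.48.

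Ldb3 had 2 further probe sets, whose mean log2 values over all arrays lay below the floor. One read 112, 146 and 147 against 61.1, 45.9 and 73.4, so that every ovary-derived array lay below the floor and the fold can be given only as a bound, at least 1.30-fold higher. That bound is the mesonephros-derived mean against the floor. The other read 15.4, 319 and 221 against 61.5, 70.9 and 100 and overlapped between the groups, with mesonephros-derived replicate 1 the lowest of all arrays.

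Pdlim5, or ENH, which ties protein kinase C to the Z-disc, was read on 7 probe sets, and they did not give 1 direction. The brightest had signals of 269, 902 and 598 against 519, 494 and 284 and overlapped, with a log2 change of 0.32 ± 0.46 (SE). Mesonephros-derived replicate 1 was the lowest array and replicate 2 the highest; the log2 change was 0.79 without replicate 1 and −0.055 without replicate 2. Another probe set separated the groups, at 404, 383 and 561 against 323, 329 and 228 (log2 change 0.59 ± 0.34 SE). The other 4 probe sets past the floor lay between −0.52 and −0.05, and on each of them mesonephros-derived replicate 1 was the lowest of the 6 arrays. Without that replicate all 4 turned to the other side of 0, at 0.20 to 0.63.

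Pdlim7, the Enigma protein itself, had signals of 1143, 1430 and 1938 against 1550, 1497 and 988 on its brightest probe set. The groups overlapped, with a log2 change of 0.15 ± 0.28 (SE) that turned to the other side of 0 without replicate 3 of the mesonephros-derived (−0.044) or of the ovary-derived group (−0.052). A second probe set read 81.6, 7709 and 628 against 403, 306 and 352. Its mesonephros-derived arrays held both the lowest and the highest value of the 6, and its log2 change of 1.10 ± 1.24 (SE) turned to −0.55 without mesonephros-derived replicate 2. The third probe set lay below the floor on average, with signals of 39.9 to 128 and overlapping groups.

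**Figure D2:**
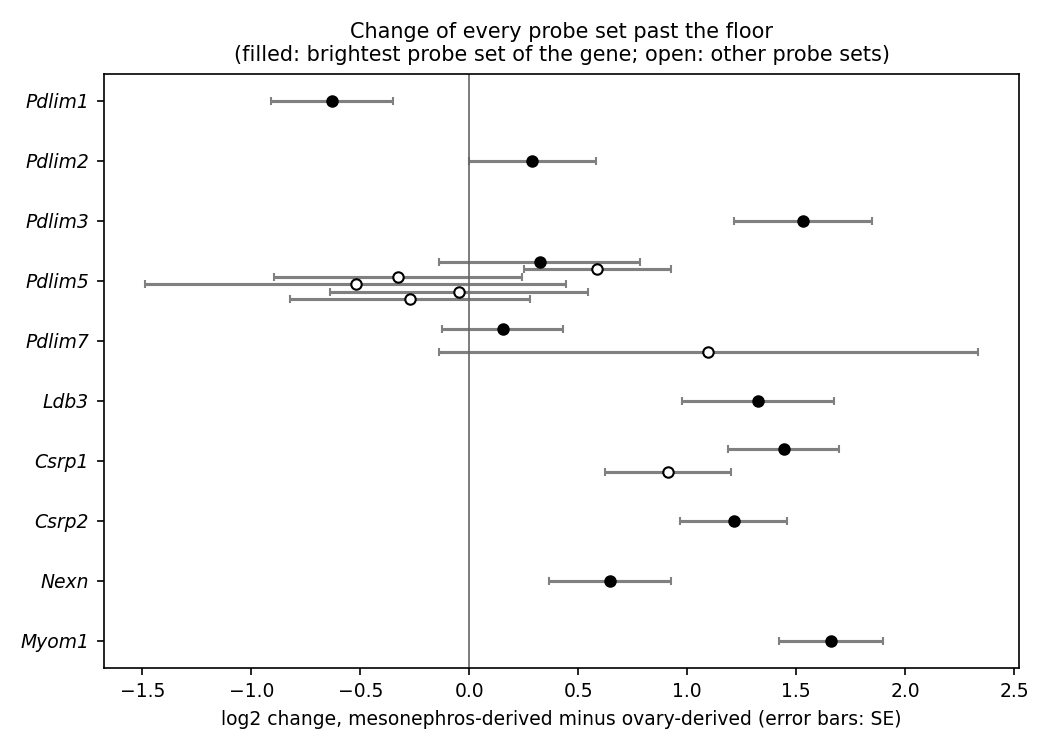
Log2 change (mesonephros-derived minus ovary-derived, horizontal axis) with its SE for each of the 17 member probe sets past the floor, grouped by gene; filled points are the brightest probe set. Pdlim5 spans −0.52 to 0.59 over its probe sets, and the open Pdlim7 point at 1.10 has an SE of 1.24.

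Of the 23 member probe sets 17 lay past the floor, 12 with a change above 0 and 5 with one below it. The groups did not overlap, with mesonephros-derived cells higher, for 9 of the 17, beside 8.82% of all 27022 probe sets tested. The 6 probe sets below the floor belonged to Pdlim1 (2), Ldb3 (2), Pdlim5 (1) and Pdlim7 (1). For 5 genes (Pdlim2, Pdlim3, Csrp2, Nexn and Myom1) there was only 1 probe set, and so no further reading.

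The cysteine and glycine-rich proteins Csrp1 and Csrp2 consist of little more than paired LIM domains; they bind alpha-actinin and zyxin and are the forms known from smooth muscle. Csrp1 had signals of 17585, 20506 and 10465 in mesonephros-derived and 4932, 6701 and 5654 in ovary-derived samples. Replicate 3 was the lowest of its group and lay well above the other group. The means were 16186 ± 5165 and 5762 ± 889 (SD, n = 3), a 2.72-fold difference (log2 change 1.44 ± 0.26 SE). A second probe set read 3076, 7000 and 5546 against 2592, 2973 and 2306, also without overlap, with a smaller log2 change of 0.91 ± 0.29 (SE). On that probe set replicate 1 was the lowest of its group, 0.24 log2 units above the ovary-derived mean, where the brightest probe set had it 1.62 units above; the 2 readings of the gene order the replicates differently.

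Csrp2, first described as the smooth muscle LIM protein, had signals of 2347, 1530 and 2533 against 823, 927 and 930. The ovary-derived values were tightly grouped, and the lowest mesonephros-derived value, in replicate 2, was above all of them. The means were 2137 ± 533 and 893 ± 60.7 (SD, n = 3), a 2.32-fold difference (log2 change 1.21 ± 0.25 SE, 1.07 to 1.43 with any one array left out). The striated muscle member of the same family, Csrp3, lay below the floor on average, with signals of 130, 58.1 and 27.7 against 77.4, 94.0 and 18.4.

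Nexn and Myom1 are no LIM proteins. Nexilin, the product of Nexn, binds actin filaments and stabilises the Z-disc of the heart, and its transcript also occurs in smooth muscle and fibroblasts. Its signals were 628, 607 and 867 against 405, 443 and 463. The groups did not overlap, with means of 701 ± 145 and 437 ± 29.4 (SD, n = 3; log2 change 0.65 ± 0.28 SE).

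Myom1 encodes myomesin 1, which cross-links myosin filaments in the M-band and belongs to that structure, not to the Z-disc. It had signals of 3107, 1998 and 2532 in mesonephros-derived samples and 672, 817 and 871 in ovary-derived samples. All mesonephros-derived values were more than 1000 units above the highest ovary-derived one. The means were 2545 ± 555 and 787 ± 103 (SD, n = 3), a 3.16-fold difference (log2 change 1.66 ± 0.24 SE). It lay between 1.5 and 1.82 with any one array left out. Its relative Myom2 lay below the floor on all 6 arrays and Myom3 likewise.

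Averaged over the 10 genes and set to the mean of the ovary-derived arrays, the log2 level was 0.75, 0.71 and 0.93 in replicates 1, 2 and 3 of the mesonephros-derived group, and the SD among ovary-derived arrays was 0.041. Replicate 3, whose spike signal and overall profile were closest to the ovary-derived arrays, was the highest of the 3. The lead of replicate 3 over replicate 1 came from Pdlim1, Pdlim5 and Pdlim7, whose groups overlapped. They stood at −0.21, 0.50 and 0.55 in replicate 3 and at −0.61, −0.61 and −0.20 in replicate 1. Among the separated genes, Ldb3, Csrp1 and Myom1 were higher in replicate 1 than in replicate 3, and Pdlim2, Pdlim3, Csrp2 and Nexn were lower. Averaged over the separated genes alone, replicate 1 lay above replicate 3. The genes did not share 1 order of the replicates: replicate 3 was the highest of its group for 5 genes, replicate 2 for 3 and replicate 1 for 2. Pdlim3 and Csrp2 had the most similar profiles, with a Pearson correlation of 0.989 over the 6 arrays and of 0.938 once each group's mean was subtracted. Both were lowest, within their group, in replicate 2. Csrp2 and Myom1 followed at 0.976. Csrp1 ran the other way within the groups, at −0.61 against Csrp2 and −0.93 against Pdlim1. These correlations are descriptions over 6 arrays, and all genes were read on the same arrays.

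Among genes that are no members, the 5 whose brightest probe set followed the mean of the 10 genes most closely over the 6 arrays were Cyp2u1 (Pearson r = 0.995), Arntl2 (0.992), Col4a4 (0.989), Fblim1 (0.989) and Tagln (0.988). Fblim1 encodes migfilin, itself a LIM protein of cell-matrix adhesions, with signals of 3565, 3702 and 3900 against 2129, 1964 and 2010. Tagln encodes transgelin, an actin-binding protein of smooth muscle, with signals of 6660, 6314 and 6977 against 2328, 2328 and 2484. For Cyp2u1 all ovary-derived arrays lay below the floor. All 5 genes had separated groups with mesonephros-derived arrays higher, as had 9.56% of the 11703 genes tested. They were picked for following a mean whose own groups were separated, so nothing is read from that count. Their correlations include that group difference, and none was computed within the groups.

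Genes with related roles were read from lists of textbook members. In the list of other Z-disc and M-band genes, 0 of 18 genes past the floor passed the threshold of an adjusted p of 0.05 in limma, beside 0.0256% of all 11703 genes tested; 4 of them had an unadjusted p under 0.05. Of the 18, 14 had a change above 0 and the median was 0.49. Jph2, which couples calcium channels of the cell membrane to internal stores, stood at 1.51 ± 0.45 log2 units (SE, limma adjusted p = 0.286) and Trim54, a ubiquitin ligase of the sarcomere, at 1.45 ± 0.49 (0.317). Synpo2, the actin bundler myopodin, stood at 0.95 ± 0.36 (adjusted p = 0.352), Capzb, which caps actin at the Z-disc, at 0.50 ± 0.19 (0.343) and the intermediate filament gene Des at 0.48 ± 0.47 (0.664). Over the alternatives the median ran from 0.20 (without mesonephros-derived replicate 2) to 0.57 (median centring).

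Actn2, the sarcomeric alpha-actinin to which PDZ and LIM proteins bind in striated muscle, read 17.1, 30.0 and 77.3 in mesonephros-derived and 17.6, 38.7 and 22.6 in ovary-derived samples. All 6 values were below the floor. Ttn was past it: the giant sarcomere protein gene Ttn read 288, 285 and 63.4 against 107, 123 and 129 (limma adjusted p = 0.713). Of the 35 listed genes 32 were measured, 14 lay below the floor on average and 9 on every array.

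Markers of skeletal and heart muscle were followed for the same reason. Of 36 measured, 23 lay below the floor on average and 11 on every array. The summed signal of the 36 was 6199 to 10413 in mesonephros-derived and 3590 to 5036 in ovary-derived samples, so it moved with the members, and its part in their difference was not tested. It was highest in mesonephros-derived replicate 2, where Tnnt2, a troponin T of heart muscle, read 2306 against 379 and 1277 in replicates 1 and 3 and 211 to 397 in ovary-derived samples (limma adjusted p = 0.319). In that same replicate Pdlim1, Pdlim3, Csrp2, Nexn and Myom1 were at the lowest level of their group, and Pdlim2, Pdlim5 and Csrp1 at the highest. Of 13 markers past the floor 11 had a change above 0, and their median was 0.78. That median ran from 0.37 to 1.04 over the alternatives and the fits without 1 array. In limma 0 of the 13 passed the threshold, 2 with an unadjusted p under 0.05. Tnnt1 stood at 1.09 ± 0.37 (SE, adjusted p = 0.319), Actn3 at 1.03 ± 0.46 (0.389) and Tnni3 at −0.99 ± 0.44 (0.392).

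The list of other LIM domain proteins of the actin cytoskeleton had 32 genes past the floor, 21 with a change above 0, and a median of 0.24. None passed the threshold in limma (0 of 32, 6 with an unadjusted p under 0.05). Lpp, a partner of alpha-actinin at adhesions and a gene known from smooth muscle, read 16477, 13793 and 10396 against 6339, 6038 and 6199 (log2 change 1.10 ± 0.19 SE, limma adjusted p = 0.136), with its other 7 probe sets past the floor at 0.11 to 0.71. Crip1 stood at 1.04 ± 0.22 (adjusted p = 0.203), Zyx, the adhesion protein zyxin that binds Csrp1, at 0.71 ± 0.27 (0.352) and Fhl1 at 0.55 ± 0.21 (0.351). Over the alternatives the median ran from 0.10 (without mesonephros-derived replicate 2) to 0.32 (median centring).

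Proteins that the members bind, and the factors of the SRF pathway, formed another list, with 0 of 24 genes past the threshold in limma and 7 with an unadjusted p under 0.05. Its median was 0.16, and 15 of the 24 had a change above 0; over the alternatives the median ran from 0.071 (quantile normalization) to 0.37 (without mesonephros-derived replicate 1). The tropomyosins Tpm2 and Tpm1 stood at 1.14 ± 0.16 (SE, adjusted p = 0.0963) and 0.98 ± 0.22 (0.210), with further probe sets of Tpm1 at 0.69 and −0.048. The myosin light chain Myl9 stood at 1.05 ± 0.16 (adjusted p = 0.109) and the filamin Flna at 0.76 ± 0.16 (0.205). Actn1, the alpha-actinin of non-sarcomeric cells, read 3382, 4747 and 4929 against 3954, 3383 and 3869. On that probe set the groups overlapped (log2 change 0.20 ± 0.20 SE, adjusted p = 0.671). Another Actn1 probe set separated the groups, with mesonephros-derived arrays higher (log2 change 0.53 ± 0.22 SE, limma adjusted p = 0.374). A further one overlapped, at 0.076. Srf stood at −0.33 ± 0.25 (adjusted p = 0.587) and its muscle cofactor Myocd at 0.87 ± 0.32 (0.345), with signals of 1287, 2004 and 3202 against 960, 1287 and 1068.

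Smooth muscle contractile genes had the highest median of the lists that were compared, at 1.21, with all 12 above 0 and the groups separated for 11. In limma 2 of the 12 rose past the threshold, Myh11, the smooth muscle myosin heavy chain, at 1.92 ± 0.18 (SE, adjusted p = 0.0261) and Tagln at 1.48 ± 0.16 (adjusted p = 0.0475). Both calls were lost when some single arrays were left out: without mesonephros-derived replicate 2 or 3, or without any one of the ovary-derived arrays, 0 of the 12 passed, with 10 or 11 at an unadjusted p under 0.05, and 6 passed without mesonephros-derived replicate 1. The actins Actg2 and Acta2 stood at 1.58 ± 0.21 (adjusted p = 0.0926) and 1.23 ± 0.19 (0.106), and the kinase gene Mylk at 1.20 ± 0.18 (0.104). The summed signal of the 12 genes was 82904 to 100340 against 38792 to 42450, with 0 genes below the floor on all arrays; it moved with the members, and its part in their difference was not tested.

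Pericyte markers, which mark another contractile cell of the vessel wall, had a median of 0.28 with 0 of 8 past the threshold (limma, 2 with an unadjusted p under 0.05). Rgs5 stood at 0.83 ± 0.21 (SE, adjusted p = 0.250), Mcam at 0.67 ± 0.28 (0.375), Notch3 at 0.49 ± 0.28 (0.483) and Pdgfrb at 0.28 ± 0.24 (0.633). Further probe sets of Rgs5 lay at 0.49, 0.29 and 0.58, each with overlapping groups, and a further probe set of Notch3 at −0.25. The summed signal of the 8 markers was 28566 to 40673 against 20918 to 28210, with all 8 past the floor. Over the alternatives the median ran from 0.13 (array weights) to 0.47 (without mesonephros-derived replicate 3).

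**Figure D3:**
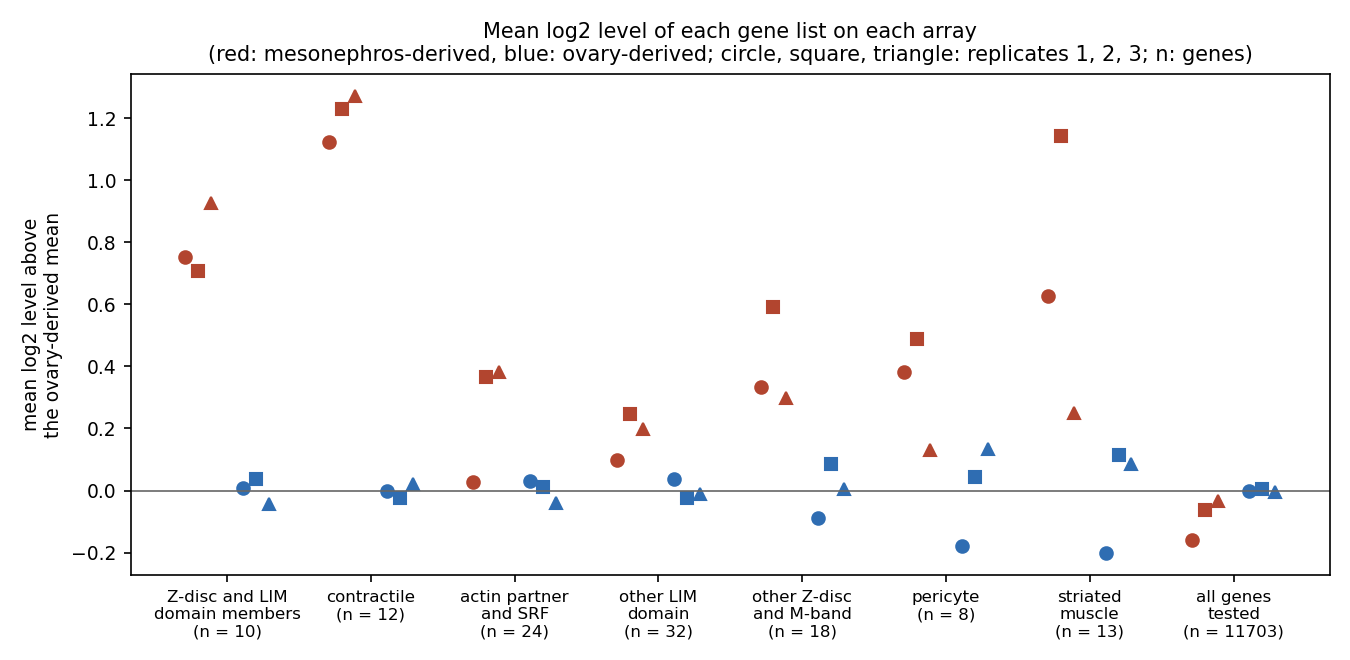
Mean log2 level of the genes of each list past the floor (vertical axis, relative to the ovary-derived mean) on each array; symbols mark the replicates. The 10 members lie at 0.71 to 0.93 on the mesonephros-derived arrays and the contractile genes at 1.12 to 1.27, while the mesonephros-derived values of the striated muscle markers range from 0.25 to 1.14.

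**Figure D4:**
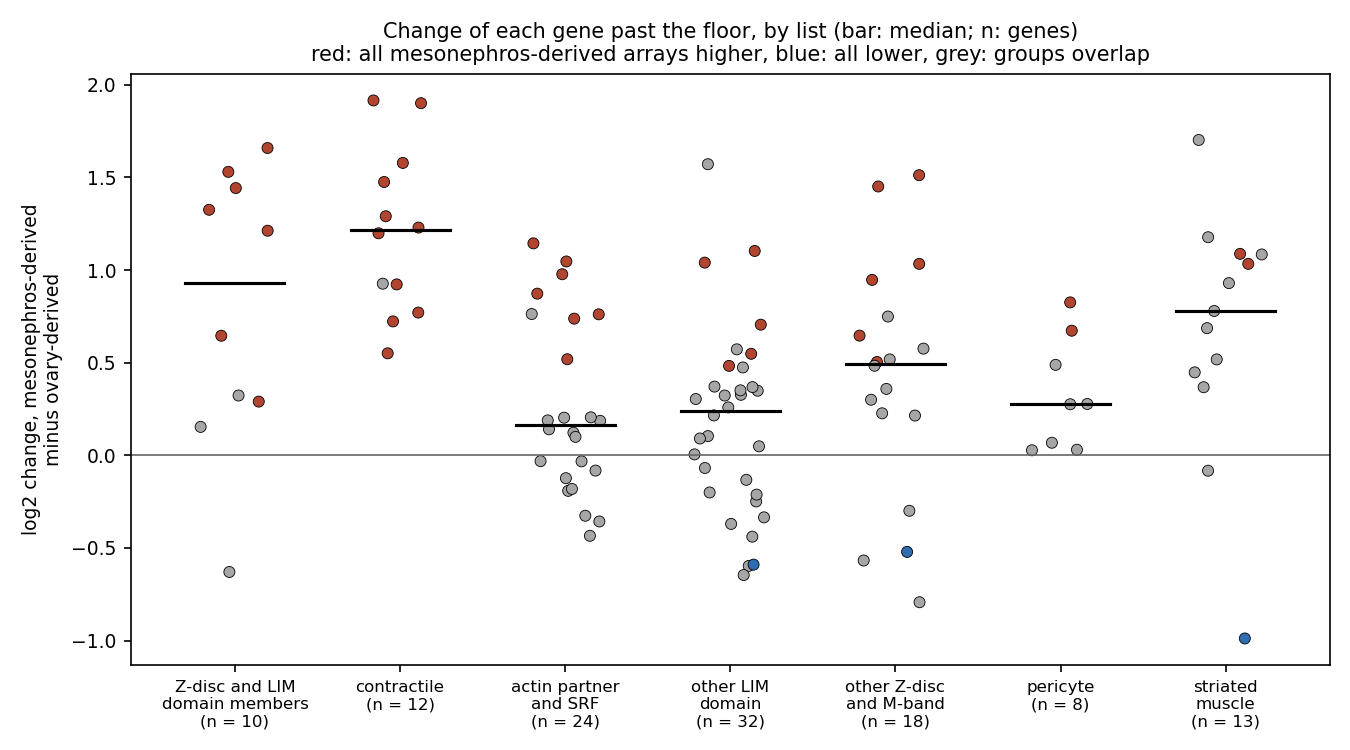
Log2 change of each gene past the floor (vertical axis) by list, with the median as a bar; red and blue points are genes whose groups do not overlap, with mesonephros-derived cells higher or lower, and grey points are genes whose groups overlap. The medians run from 0.16 for the actin partner and SRF list to 1.21 for the contractile list, with the 10 members at 0.93.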

How the data were processed

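The deposited values are linear intensities, 1 signal per probe set and array, which the authors computed with MAS5, per the submitters' processing notes (MAS5 parameters: not given in the sources used here). For each of the 6 arrays the mean after trimming 2% at each end was 500. No further normalization was applied. Values were moved to log2(signal + 16). The 64 control probe sets and those below the 40th percentile of the mean were not tested. Of 45037 probe sets, 34945 had 1 gene symbol, 932 several and 9160 none here; 34741 matched RefSeq gene identifiers (GRCm38.p6), which changed 0 symbols. The fit over 27022 probe sets used limma 3.58.1 in R 4.3.3 (lmFit, eBayes with trend, group as the only factor, Benjamini-Hochberg, adjusted p of 0.05). Its code was run on simulated data with less noise than these arrays and with planted changes larger than any member's. That run does not tell how many changes the fit finds or misses in these data. Precision is limited by the 3 arrays in each group. Whether the samples are separate animals is not stated in the labels; the p-values then measure only how far these samples spread, and that spread may be technical. No 2 arrays held identical values.

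The members and lists were chosen with earlier results of these data known. All members are named; from other lists, up to 4 genes with the smallest p, a fixed set and any gene past the threshold; and the 5 non-members most like the members. From the theca and granulosa marker lists Insl3, Lhcgr and Cyp19a1 were not analysed here. Granulosa markers summed to 4500 to 6242 in mesonephros-derived and 4604 to 6016 in ovary-derived samples, and most of each sum came from Foxl2. Fshr lay below the floor on all 6 arrays. Amh, below the floor on average, read 511, 234 and 33.4 in mesonephros-derived replicates 1, 2 and 3. In ovary-derived replicates 1, 2 and 3 Amh read 20.7, 28.1 and 34.7. Alternatives covered the pseudocount, floor, normalization, probe set choice, eBayes, array weights, the replicate number and leaving out each array; keeping the probe set fixed while leaving out arrays was added after seeing the data.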

Additional observations from a re-analysis of the deposited data

How the results depend on the processing

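Among 13 alternatives and 6 fits without 1 array, the median change of the 10 genes stayed above 0 in all 19 (0.86 to 1.01, and 0.78 to 0.99 with an array left out), and so did the changes of Pdlim2, Pdlim3, Ldb3, Csrp1, Csrp2, Nexn and Myom1, while Pdlim1 stayed below 0. Pdlim5 turned to −0.043 as the mean of its probe sets and spanned −0.055 (without mesonephros-derived replicate 2) to 0.79 with an array left out, and Pdlim7 was 0.63 as the mean of its probe sets and spanned −0.052 (without ovary-derived replicate 3) to 0.33. The count of members separated and higher was 6 to 8 and of those lower 0 to 1; over all genes tested the share separated and higher was 9.56%, and 12.0% to 17.8% without 1 array (17.8% without mesonephros-derived replicate 3). Calls over all probe sets moved from 4 (3473 at an unadjusted p under 0.05, limma) to 2 with pseudocount 1, no floor or median centring, 7 with pseudocount 64, quantile normalization (6 of them higher) or the replicate block, 8 with the higher floor, 9 with gene means, 1 with no trend and 252 with array weights, and spanned 0 to 104 without 1 array, the 104 without mesonephros-derived replicate 1. Contractile calls were 1 with pseudocount 1, no floor or the replicate block, 0 after median centring or with no trend (12 at an unadjusted p under 0.05 each), 5 with gene means, 6 with array weights and 0 to 6 without 1 array. With array weights the actin partner and SRF list had 3 calls, the LIM domain list 3 and the striated muscle list 1, and without 1 array 0 to 2, 0 to 1 and 0 to 1. The cause of these shifts was not tested. Same-numbered replicates of the 2 groups did not deviate together (correlations of 0.0203, 0.0575 and −0.00746), so the numbers were not taken as pairs; with the replicate block 7 probe sets were called. Signals near the floor of 99.4 limit what can be said of Actn2, Csrp3, Myom2 and the dim probe sets of Ldb3.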

Other observations

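Xirp1, which encodes an actin-binding repeat protein of intercalated discs and muscle attachments, is a gene of the Z-disc and M-band list that was not tested because its mean log2 value over all arrays lay below the floor (a signal of 99.4). It was chosen here after its values were seen. Its signals were 163, 361 and 118 in mesonephros-derived replicates 1, 2 and 3 and 24.4, 26.8 and 29.5 in ovary-derived replicates 1, 2 and 3. All mesonephros-derived arrays lay above the floor and all ovary-derived ones below it, so the fold is a bound, at least 1.81-fold higher, and it has no p-value.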
